A study of Mus musculus with 2 samples.

Results

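The 10 genes described here carry iron into cells, store it, let it out and sense it. They are Tfrc, Tfr2, Slc11a2, Steap3 and Slc25a37 for uptake, Fth1 and Ftl1 for storage, Slc40a1 for export, and Ireb2 and Aco1 as regulators. They were chosen by symbol, and all 10 were found once each in both gene tables, among 21474 protein-coding genes. The series holds a single group, mouse leukemia stem cells with 2 biological replicates. The cells carried Friend virus, which is a retrovirus known for erythroleukemia in mice. Per the labels, the cells were positive for CD34, CD133, Kit and Sca1 and came from male and female adults of 10 to 12 weeks, pooled, of a strain that has to carry the sensitive form of Fv2. The strain itself, any further treatment and uninfected cells are not described in the labels used here. The replicates are separate biosamples under 1 donor record, so part of their difference may be technical. The assay was paired-end sequencing of polyA RNA. Nothing could be compared between conditions, and no p-value was computed.

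Iron reaches the cells of the blood bound to transferrin. Transferrin receptor 1, the product of Tfrc, carries the complex into endosomes, where Steap3 reduces the iron and the transporter Slc11a2 (DMT1) moves it into the cytosol. Slc25a37 (mitoferrin-1) imports it into mitochondria, where red cell precursors use most of their iron for heme. Ferritin, a shell of heavy (Fth1) and light (Ftl1) chains, stores the surplus, and ferroportin (Slc40a1) is the known exporter of iron from mammalian cells. The iron regulatory proteins 1 and 2, made from Aco1 and Ireb2, bind hairpins in messenger RNA called iron-responsive elements when iron is scarce. Bound near the start of a messenger RNA they hold back its translation, and bound in the 3′ untranslated region (UTR) of Tfrc they protect the RNA from decay. RNA levels such as those below do not show the translational part of this control.

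The hairpins are shown first, because they divide the members by how they are known to be controlled. The motif searched was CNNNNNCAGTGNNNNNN, in which the 5 bases before and the 5 bases after the 6-base loop pair by Watson-Crick or G-T pairs. It was searched on the sense strand of annotated transcripts (GENCODE M21, mm10). Each sequence below runs over 30 bases of the transcript, with the unpaired C and the loop in capitals.

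Fth1 5′ UTR: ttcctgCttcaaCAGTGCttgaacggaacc
Ftl1 5′ UTR: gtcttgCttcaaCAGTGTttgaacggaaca
Slc40a1 5′ UTR: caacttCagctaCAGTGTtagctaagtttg
Tfrc 3′ UTR, copy 1: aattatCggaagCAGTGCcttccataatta
Tfrc 3′ UTR, copy 2: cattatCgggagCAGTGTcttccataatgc
Tfrc 3′ UTR, copy 3: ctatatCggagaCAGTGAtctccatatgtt
Tfrc 3′ UTR, copy 4: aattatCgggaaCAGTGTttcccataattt
Slc11a2 3′ UTR: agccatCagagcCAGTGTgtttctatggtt

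The motif was found in 4 of the 10 members, Fth1, Ftl1, Slc40a1 and Tfrc, and in 1.34% of all 21877 annotated protein-coding genes. In Fth1-201 its 17 bases lay at chr19:9982738-9982754 on the plus strand, in Ftl1-201 at chr7:45459785-45459801 on the minus strand, and in Slc40a1-201 at chr1:45925471-45925487 on the minus strand, each before the coding sequence. Tfrc-201 held 4 copies after its coding sequence, which did not overlap, between chr16:32631225-32631241 and chr16:32631716-32631732 on the plus strand. Slc11a2-205 matched at chr15:100395159-100395175 on the minus strand after its coding sequence, when 1 unpaired base was allowed in the 3′ arm, a rule that 4.03% of genes met. The motif was not found in annotated transcripts of Tfr2, Steap3, Slc25a37, Ireb2 or Aco1. A match is a description of the sequence, and binding was not measured.

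**Figure D1:**
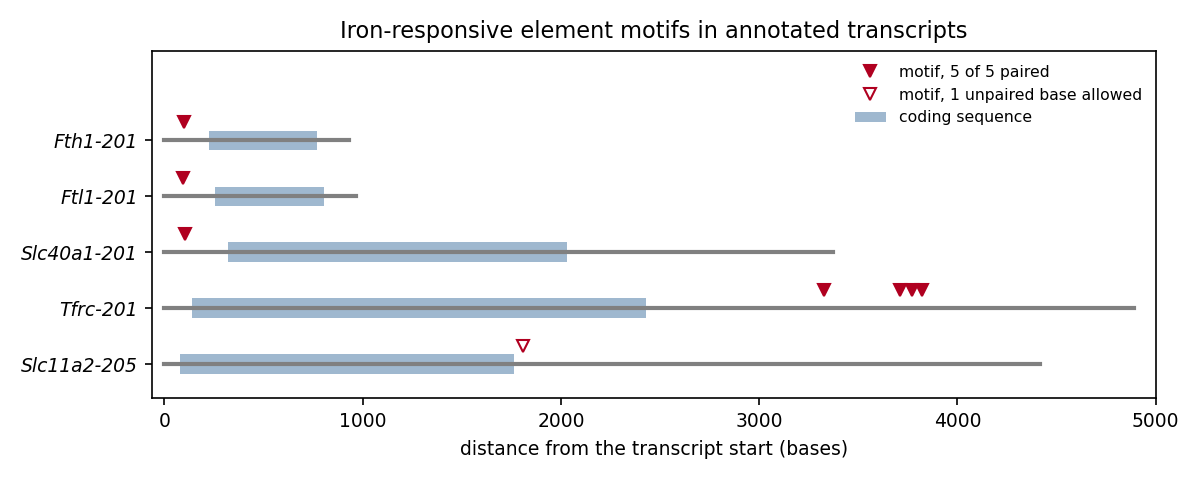
Position of the motif (triangles) along 1 annotated transcript of each of 5 members, in bases from the transcript start. Fth1, Ftl1 and Slc40a1 have 1 filled triangle before the coding sequence (blue box), Tfrc has 4 after it, and Slc11a2 has an open triangle, the match with 1 unpaired base, after it.

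Depth was similar, at 22541765 expected counts for replicate 2 and 23575315 for replicate 1. An expected count is an estimated number of fragments, and TPM is the deposited share of all transcripts, corrected for their length. The marker genes of the labelled sort were scarce. Ly6a, which encodes Sca1, had 2.15 TPM in replicate 2 and 1.45 TPM in replicate 1, Kit had 1.06 and 1.81 TPM, and Cd34 had 0.27 and 1.80 TPM in the same order. Prom1, which encodes CD133, had 0 counts in replicate 2 and 3 in replicate 1. All 14 erythroid markers analysed had at least 1 TPM in each library. They were led by the globins Hba-a1, Hba-a2 and Hbb-bs, and summed to 224251 TPM in replicate 2 and 114291 TPM in replicate 1. The alpha globins Hba-a1 and Hba-a2 made up 203554 TPM of this in replicate 2 and 73605 TPM in replicate 1, while the other 12 markers summed to 20698 TPM in replicate 2 and 40685 TPM in replicate 1, and each of the 12 had the lower TPM in replicate 2. The globin share of TPM was 22.2% in replicate 2 and 10.99% in replicate 1. Of 15 macrophage markers, 9 had at least 1 TPM in each library, led by the complement genes C1qc, C1qa and C1qb. The 15 summed to 1390 TPM in replicate 2 and 1044 TPM in replicate 1. The median macrophage marker had a mean of only 2.4 TPM, and Clec4f had 0 counts. Granulocyte markers, led by Camp, Lcn2 and Ngp, summed to 41.2 TPM in replicate 2 and 67.3 TPM in replicate 1. Of 10 hepatocyte markers, only Trf reached 1 TPM in both, and Alb, Ttr, Hamp, Cyp3a11, Fgb and Ahsg had 0 counts, which in replicate 2 allows between 0.0412 TPM for Fgb and 0.601 TPM for Hamp. The members' RNA is therefore described here for libraries with abundant erythroid RNA and little RNA of the sort markers. In such bulk libraries, fewer cells of a type and less RNA per cell cannot be told apart.

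Iron storage dominated the members. Fth1 and Ftl1 together held 98.0% of the 10 members' summed TPM in replicate 2 and 95.1% in replicate 1, or 2.03% and 1.72% of all TPM in the same libraries. The 5 uptake genes summed to 394 TPM in replicate 2 and 861 TPM in replicate 1, Slc40a1 had 14.4 TPM and 19.7 TPM, and the 2 regulators summed to 4.25 TPM and 8.17 TPM. Of the 10 members, 9 reached 1 TPM in both libraries, against 41.6% of all protein-coding genes, and Ireb2 did so in replicate 1 only. The median member had a mean level of 60.5 TPM, against 0.55 TPM for the median protein-coding gene.

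By mean TPM the order ran Fth1, Ftl1, Steap3, Slc25a37, Tfr2, Tfrc, Slc40a1, Slc11a2, Aco1, Ireb2. Of the 9 pairs of neighbours in this order, 6 had ranges over the libraries that did not overlap. The exceptions were Steap3 with Slc25a37, Slc25a37 with Tfr2, and Tfrc with Slc40a1. With 2 libraries this is a description of the spread and not a test.

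**Figure D2:**
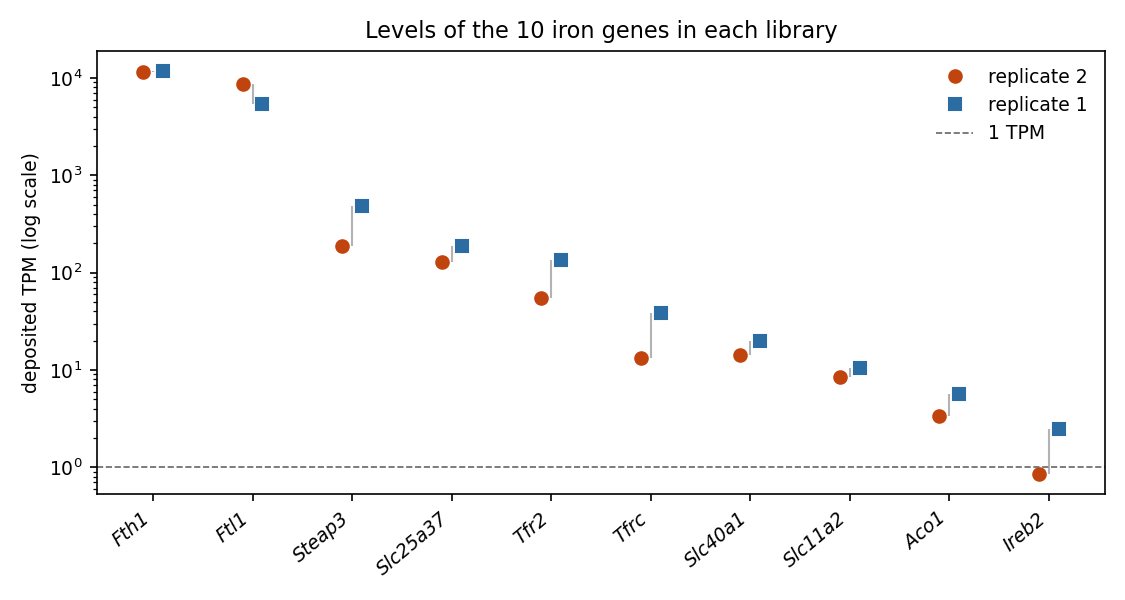
Deposited TPM of the 10 members on a log scale, with a circle for replicate 2 and a square for replicate 1 of each gene, joined by a gray line. Fth1 and Ftl1 stand far above the other 8 members in both libraries, and Ireb2 falls below the dashed line at 1 TPM in replicate 2.

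Fth1 (ENSMUSG00000024661.6, chromosome 19, 9980598 to 9985098, plus strand), the ferritin heavy chain that oxidises iron on its way into the shell, was the most abundant member. It had 11633 TPM from 167568 counts in replicate 2 and 11804 TPM from 171044 counts in replicate 1, or 11718 ± 120 TPM (SD, n = 2). It was the eighth most abundant protein-coding gene by mean TPM. Both libraries gave nearly the same TPM and nearly the same counts before scaling, and scaled ratios are given further below. The files give Fth1 a single transcript of 866 bases, while M21 gives Fth1-201 929 bases, and whether the shorter model holds the element was not examined.

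Ftl1 (ENSMUSG00000050708.10, chromosome 7, 45457944 to 45459884, minus strand), the light chain that helps the iron core to form, had 8659 TPM from 92391 counts in replicate 2. In replicate 1 it had 5390 TPM from 55826 counts, which gives 7024 ± 2311 TPM (SD, n = 2). Fth1 exceeded Ftl1 in both libraries, 1.34-fold in replicate 2 and 2.19-fold in replicate 1. Ftl1 shares sequence with many copies in the genome: 17 annotated genes, most of them processed pseudogenes, shared 30 or more words of 25 bases with it. The 16 of these in the tables held 335 counts in replicate 2 and 390.3 in replicate 1, most of them on Ftl1-ps1, so the copies' estimates are small beside those of Ftl1. How the reads were divided among copies is not given in the sources used here, and the values of Ftl1 and its copies are uncertain to that extent.

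Most Ftl1 reads were assigned to transcript models whose identifiers are absent from M21. Whether M21 lists the same models under other identifiers was not examined. The 4 such models, written here by their identifiers, held 99.6% of Ftl1 TPM in replicate 2 and 92.9% in replicate 1. ENSMUST00000124261.3 had 60.6% in replicate 2 and 25.3% in replicate 1, and ENSMUST00000132205.3 had 36.6% in replicate 2 and 67.6% in replicate 1. Ftl1-201, the full-length transcript with the element, had 0.44% from 622 counts in replicate 2 and 7.10% from 6315 counts in replicate 1. The sequences of the other models are not used here, so how much Ftl1 RNA carried the element was not measured.

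Steap3 (ENSMUSG00000026389.12, chromosome 1, 120190757 to 120272705, minus strand), the endosomal ferrireductase of red cell precursors, was the most abundant uptake gene. It had 189 TPM from 5746 counts in replicate 2 and 486 TPM from 15886 counts in replicate 1, or 338 ± 209.9 TPM (SD, n = 2). The spread between the libraries was thus large beside the mean. The transcript Steap3-205 led in both, with 74.6% of Steap3 TPM in replicate 2 and 68.0% in replicate 1, followed by Steap3-202 with 21.3% and 29.6%. By counts its lead was narrow in replicate 1, with 7538 for Steap3-205 and 7451 for Steap3-202, against 3213 and 2091 in replicate 2. Steap3-205 has 1288 bases and Steap3-202 has 2752, and TPM divides by length.

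Tfr2 (ENSMUSG00000029716.9, chromosome 5, 137569840 to 137587481, plus strand) encodes transferrin receptor 2, known as an iron sensor in liver and as a partner of the erythropoietin receptor in red cell precursors. It had 54.3 TPM from 3004 counts in replicate 2 and 136 TPM from 7482 counts in replicate 1, or 94.95 ± 57.5 TPM (SD, n = 2). The files give it 1 transcript. Tfr2 exceeded Tfrc in both libraries. By TPM it did so 4.13-fold in replicate 2 and 3.48-fold in replicate 1, and with transcripts under 500 bases left out 22.8-fold in replicate 2 and 3.76-fold in replicate 1, because a short Tfrc model described next holds most of the Tfrc TPM of replicate 2.

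Tfrc (ENSMUSG00000022797.11, chromosome 16, 32608920 to 32632794, plus strand), the main receptor for transferrin-bound iron, differed most between the libraries among the 10 members, by counts. It had 192 counts in replicate 2 and 2747 in replicate 1, and 13.2 TPM in replicate 2 against 39.0 TPM in replicate 1, or 26.1 ± 18.3 TPM (SD, n = 2). The TPM ratio is smaller than the count ratio because of 1 short transcript model in replicate 2. Tfrc-203, of 166 bases, received 6 counts there and so 10.8 of the 13.2 TPM, and 2 counts and 2.91 TPM in replicate 1. With transcripts under 500 bases left out, an alternative chosen after the values were seen, Tfrc had 2.38 TPM in replicate 2 and 36.1 TPM in replicate 1. The authors' own interval for the gene ran over 6.77 to 24.0 TPM in replicate 2 and 34.7 to 45.2 TPM in replicate 1. It lies around the posterior mean TPM, another deposited estimate, which was 14.8 in replicate 2 and 39.4 in replicate 1. The full-length Tfrc-201, which holds the 4 elements, had 180 counts in replicate 2 and 2335 counts in replicate 1. Tfrc-204, annotated as a retained intron with the same elements, had 0 and 325 counts in the same order.

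Slc25a37 (ENSMUSG00000034248.7, chromosome 14, 69241848 to 69285112, minus strand), the mitochondrial iron importer, had 129 TPM from 5270 counts in replicate 2. In replicate 1 it had 190 TPM from 12954 counts, which gives 159 ± 42.8 TPM (SD, n = 2). Its transcripts differed between the libraries. Slc25a37-204, which M21 marks for nonsense-mediated decay, held 84.9% of its TPM in replicate 2 and 37.1% in replicate 1, while the coding Slc25a37-201 held 2.41% from 250 counts in replicate 2 and 54.7% from 8271 counts in replicate 1. The short Slc25a37-202, of 342 bases, had 49.5 counts and 12.4 TPM in replicate 2 and 0 counts in replicate 1. The gene Gm16867, which shares 449 words of 25 bases with Slc25a37, had the same 49.5 counts and 12.4 TPM in replicate 2 and 0 in replicate 1, so these reads could not be told apart. Gm31748 overlaps 381 exonic bases of Slc25a37 on the opposite strand, and held 20.5 counts in replicate 2 and 23.5 in replicate 1. Because of the shift in models, the mean transcript length that the authors' values imply was 2197 bases in replicate 2 and 3592 bases in replicate 1.

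Slc11a2 (ENSMUSG00000023030.12, chromosome 15, 100387898 to 100425072, minus strand), the transporter that moves iron out of the endosome, had 8.51 TPM from 423 counts in replicate 2 and 10.6 TPM from 636 counts in replicate 1, or 9.56 ± 1.48 TPM (SD, n = 2). The gene is known to make RNAs with and without an element at the 3′ end. Slc11a2-205, with the element, had 196 counts and 27.1% of TPM in replicate 2 and 398 counts and 44.4% in replicate 1. Slc11a2-201, without it, had 196 counts and 40.1% in replicate 2 and 213 counts and 35.1% in replicate 1. Both 3′ ends were thus represented in each library. The retained-intron model Slc11a2-206 took 32.8% of TPM in replicate 2 and 20.4% in replicate 1 on 31.5 and 24.7 counts. The models that start upstream, Slc11a2-202, Slc11a2-207 and Slc11a2-208, had 0 counts. Gm5475 overlaps 402 exonic bases of Slc11a2 on the opposite strand, and held 17 counts in replicate 2 and 1 in replicate 1.

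Slc40a1 (ENSMUSG00000025993.6, chromosome 1, 45908068 to 45926523, minus strand), the exporter, had 14.4 TPM from 753 counts in replicate 2 and 19.7 TPM from 798 counts in replicate 1, or 17.045 ± 3.78 TPM (SD, n = 2). The full-length Slc40a1-201, with the element in its 5′ UTR, had 689 counts in replicate 2 and 724 in replicate 1, which were 74.8% and 57.5% of the gene's TPM. Slc40a1-205, of 370 bases, begins upstream of it and holds no match to the element. It had 12 counts and 18.3% of TPM in replicate 2 and 31.8 counts and 34.4% in replicate 1. An RNA of ferroportin without the element is known in red cell precursors and gut, but here the model rests on few reads and its TPM on its short length. With transcripts under 500 bases left out, Slc40a1 had 11.7 TPM in replicate 2 and 12.3 TPM in replicate 1. Macrophages are also known for ferroportin, and their part in this level was not tested. Of the 15 macrophage markers, 9 had at least 1 TPM in each library, and the median marker had a mean of 2.4 TPM. The most abundant, C1qc, had 639 TPM in replicate 2 and 368 TPM in replicate 1, and the 15 summed to 1390 and 1044 TPM.

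Aco1 (ENSMUSG00000028405.9, chromosome 4, 40143081 to 40198338, plus strand), which is a cytosolic aconitase when it holds an iron-sulfur cluster and a regulator of RNA when it does not, had 3.40 TPM from 249 counts in replicate 2 and 5.69 TPM from 416 counts in replicate 1, or 4.55 ± 1.62 TPM (SD, n = 2). Ireb2 (ENSMUSG00000032293.7, chromosome 9, 54863789 to 54912530, plus strand), the iron regulatory protein that is degraded when iron is plentiful, had 0.85 TPM from 96 counts in replicate 2 and 2.48 TPM from 278 counts in replicate 1, or 1.67 ± 1.15 TPM (SD, n = 2). Aco1 exceeded Ireb2 4-fold in replicate 2 and 2.29-fold in replicate 1. All reads of Aco1 went to Aco1-201, and Ireb2 has 1 transcript in the files. Ireb2 shares short stretches with Kif11 and Rnf8, whose part in its counts was not tested.

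**Figure D3:**
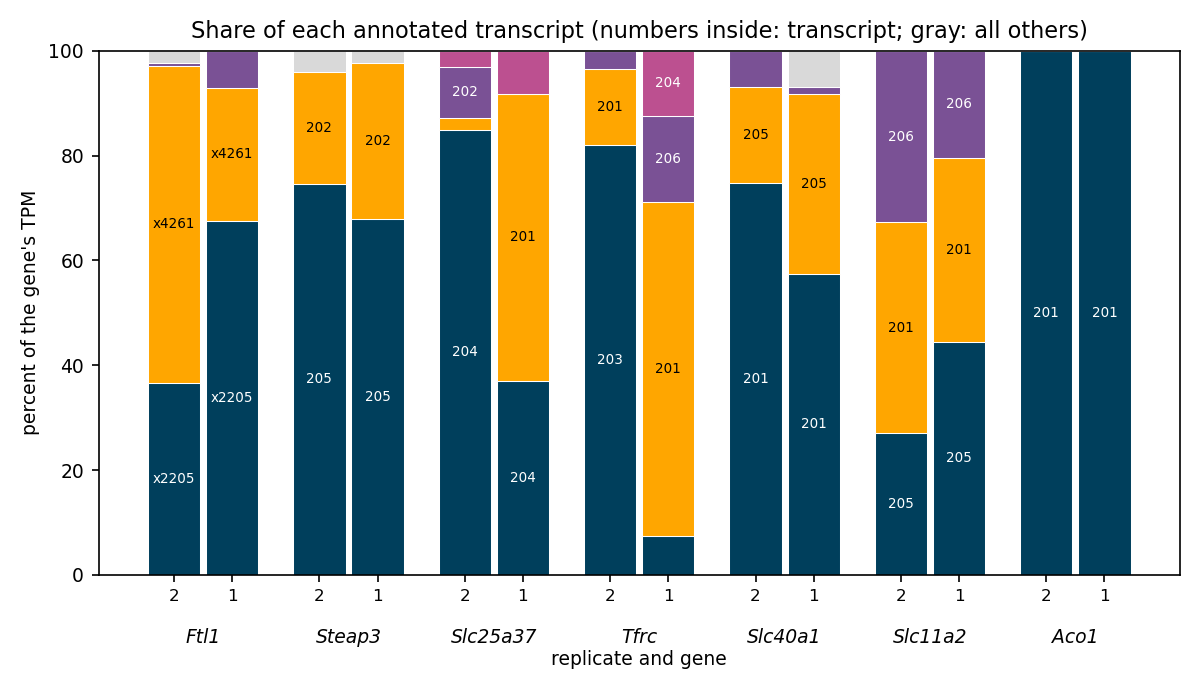
Share of each annotated transcript in the TPM of the 7 members with more than 1 transcript, replicate 2 left of replicate 1. The numbers inside the bars are transcript numbers (for Ftl1, the last digits of ENSMUST00000132205.3 and ENSMUST00000124261.3), and gray stands for transcripts that stay under 5% in both libraries. The leading transcript was the same in both libraries for Steap3, Slc40a1 and Aco1.

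The leading transcript by share of TPM was the same in both libraries for 3 of the 7 members with more than 1 transcript, and by share of counts for 5 of the 7. Slc11a2 and Tfrc were the ones added by counts, which are not divided by transcript length. For Slc11a2 this rests on a near tie in replicate 2, with 195.83 counts for Slc11a2-205 and 195.69 for Slc11a2-201. Ftl1 and Slc25a37 had different leading transcripts by either measure.

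Between the libraries, Tfrc stood far below its level in replicate 1 and Ftl1 stood above it, as ratios of counts. The counts were scaled by TMM, which sets the bulk of genes level, and a gene was called apart when the whole exact binomial 95% interval of the ratio lay beyond 2-fold. This interval covers counting error only. The ratio of replicate 2 over replicate 1 was 0.0989 for Tfrc, with an interval of 0.0847 to 0.114, and only 2.23% of the 11708 genes with 20 or more counts had a lower ratio. The ratio for Ftl1 was 2.34, with an interval of 2.31 to 2.36. Thus 1 of the 10 members was called lower in replicate 2, against 14.5% of all genes tested, and 1 was called higher, against 8.84%. With 10 members, counts of 1 are near these shares of all genes.

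The other 8 members were within 2-fold or had intervals that reached it. The log2 ratio was -0.97 for Steap3, -0.82 for Tfr2, -0.80 for Slc25a37 and -1.03 for Ireb2. Aco1 had -0.24 and Slc11a2 -0.09, with an interval for Slc11a2 of -0.27 to 0.09. Fth1 had 0.47 and Slc40a1 0.41 with TMM, 0.04 and -0.02 with total counts, and -0.02 and -0.46 as ratios of TPM, so their direction was not the same in all of these. The TPM of Slc40a1 includes that of the short Slc40a1-205, without which it was nearly the same in both libraries, as given above. The median log2 ratio was -0.52 over the members and -0.04 over all genes tested.

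The number of members called differed with the scaling, the limit and the use of TPM, which also divides by transcript length. Scaled by total counts, where the median gene stood at -0.47, 5 members were called lower in replicate 2 (Tfrc, Steap3, Tfr2, Slc25a37 and Ireb2), against 23.1% of all genes. With TMM and a limit of 1.5-fold in place of 2-fold, the same 5 were called lower, against 22.6% of all genes. As ratios of the deposited TPM, with the median gene at -0.45, 4 were called lower, against 24.2% of all genes. None was called higher with total counts or TPM, although Ftl1 kept a positive log2 ratio of 0.79 and 0.68. Of all calls, 37.9% were higher in replicate 2 with TMM, 12.0% with total counts and 14.0% with TPM. Tfrc was called lower under each scaling, at -3.77 with total counts and -1.56 as a ratio of TPM, and Steap3, Tfr2, Slc25a37 and Ireb2 lay below 0 under each of them. The calls on TPM use the counting interval of the gene's counts and take transcript lengths as exact. For Tfrc, most of the TPM in replicate 2 rests on 6 counts of Tfrc-203. The authors' interval for Tfrc ended at 24.0 TPM in replicate 2 and began at 34.7 TPM in replicate 1, bounds within 2-fold of each other.

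The ratios of all genes differed with abundance. Over sixths of the genes ranked by total count, the median log2 ratio with TMM was -0.34 in the lowest sixth and 0.33 in the highest, which held Fth1, Ftl1, Steap3, Slc25a37 and Tfr2. Fth1 and Ftl1 lay above 0 like the median gene of that sixth, and Steap3, Slc25a37 and Tfr2 lay below 0. Relative to the median gene of the same sixth, an alternative added after the values were seen, Tfrc, Steap3, Tfr2 and Slc25a37 were called lower in replicate 2, against 13.1% of all genes, and Ftl1 was not called. With TMM and no such alternative, 6 of the 14 erythroid markers (42.9%) were called lower in replicate 2, against 14.5% of all genes. The 2 called higher (14.3%, against 8.84% of all genes) were the alpha globins Hba-a1 and Hba-a2. These are near-identical copies whose reads may be split between them. Of the 14 macrophage markers with 20 or more counts, 3 (21.4%) were called lower and 1 (7.14%) higher, against the same shares of all genes. The part of erythroid RNA, macrophage RNA and abundance in the members' ratios was not tested.

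**Figure D4:**
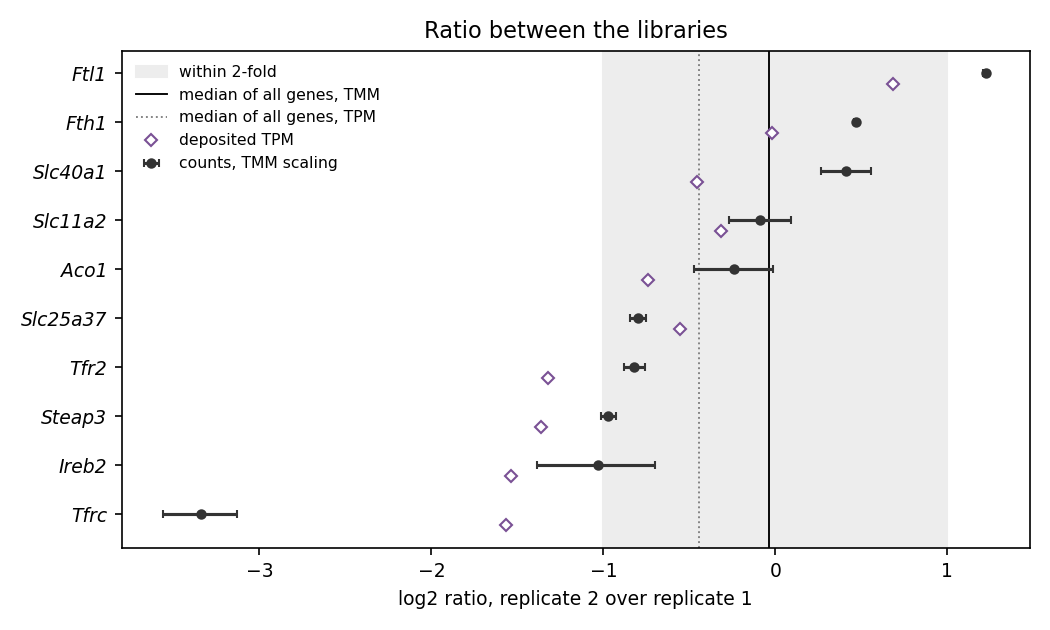
Log2 ratio of replicate 2 over replicate 1 for the 10 members. Dots with bars are TMM-scaled counts with the exact binomial 95% interval, open diamonds are ratios of deposited TPM, the gray band marks 2-fold, and the vertical lines mark the median of all genes tested. Only Tfrc, at -3.34, and Ftl1, at 1.22, have a whole interval outside the band.

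Of the wider iron machinery, 68 further genes in 7 role groups were examined, and 45 of them (66.2%) reached 1 TPM in both libraries, beside 41.6% of all protein-coding genes. The median gene of the list had a mean of 13.5 TPM. Of the 54 with 20 or more counts, 9 were called lower in replicate 2 and 9 higher, or 16.7% each, beside 14.5% and 8.84% of all genes tested. Nearly all genes that build iron-sulfur clusters were detected, and between 40% and 60% of the genes in each of the other groups.

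Among genes of uptake and reduction, 6 of 12 were detected. Mcoln1, a lysosomal channel that releases iron, had 252 TPM from 1189 counts in replicate 2 and 79.1 TPM from 567 counts in replicate 1. Snx3, which recycles the transferrin receptor, had 129 TPM from 2934 counts and 78.2 TPM from 1851 counts in the same order. The transcript models behind these levels were not examined. Steap1, a relative of Steap3, had 0 counts, which allows up to 0.182 TPM in replicate 2 and 0.181 TPM in replicate 1.

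Of the 5 genes listed for storage and ferritin handling, 3 were detected. Nup35, also in this list, had 23.5 counts in replicate 2 and 2.47 in replicate 1 and was called higher. Its part in handling ferritin was not examined. Pcbp1, a chaperone that delivers iron to ferritin, had 1198 TPM in replicate 2 and 900 TPM in replicate 1. Its relative Pcbp2 had 17.3 TPM in replicate 2 and 115 TPM in replicate 1, and was called lower. Ftmt, the ferritin of mitochondria, had 0 counts, which allows up to 0.115 TPM in either library.

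Of 5 genes of export and iron oxidation, 2 were detected. Flvcr1, known as a heme exporter, had 27.2 TPM in replicate 2 and 23.2 TPM in replicate 1, and Abcg2, a transporter that exports porphyrins and other compounds, had 1.76 and 12.2 TPM and was called lower in replicate 2. The ferroxidases Heph and Hephl1, which work beside ferroportin in gut and other tissues, had 0 counts, with limits of 0.0424 and 0.0295 TPM in replicate 2.

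Of 8 genes that handle heme iron, 4 were detected. Blvrb, a biliverdin reductase, had 900 TPM in replicate 2 and 789 TPM in replicate 1, and Hmox1, which opens the heme ring and frees its iron, had 97.8 and 157 TPM. Hpx, the heme scavenger of plasma, had 0 counts, which allows up to 0.113 TPM in either library.

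The mitochondrial group had 16 of 17 genes detected. Glrx5, which passes on iron-sulfur clusters, had 464 TPM in replicate 2 and 430 TPM in replicate 1. All 7 genes of cytosolic cluster assembly were detected, led by Ciapin1, an electron carrier of the early steps. Ciapin1 had 116 TPM from 943 counts in replicate 2 and 1149 TPM from 5521 counts in replicate 1. The next was Ciao2b, which helps to target clusters to their proteins, with 54.6 and 34.3 TPM in the same order. TPM divides by transcript length, and the transcript models behind these levels were not examined. Ciapin1 was called lower in replicate 2 and Ciao2b higher.

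Of 14 systemic and sensing genes, 7 were detected. Erfe, the erythroid hormone that lowers hepcidin, had 65.2 TPM in replicate 2 and 40.3 TPM in replicate 1 and was called higher, and Picalm, which takes part in endocytosis of the transferrin receptor, had 25.3 and 27.0 TPM. The hepcidin genes Hamp and Hamp2, made by liver, had 0 counts, which in replicate 2 allows up to 0.601 and 0.51 TPM for these short RNAs.

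**Figure D5:**
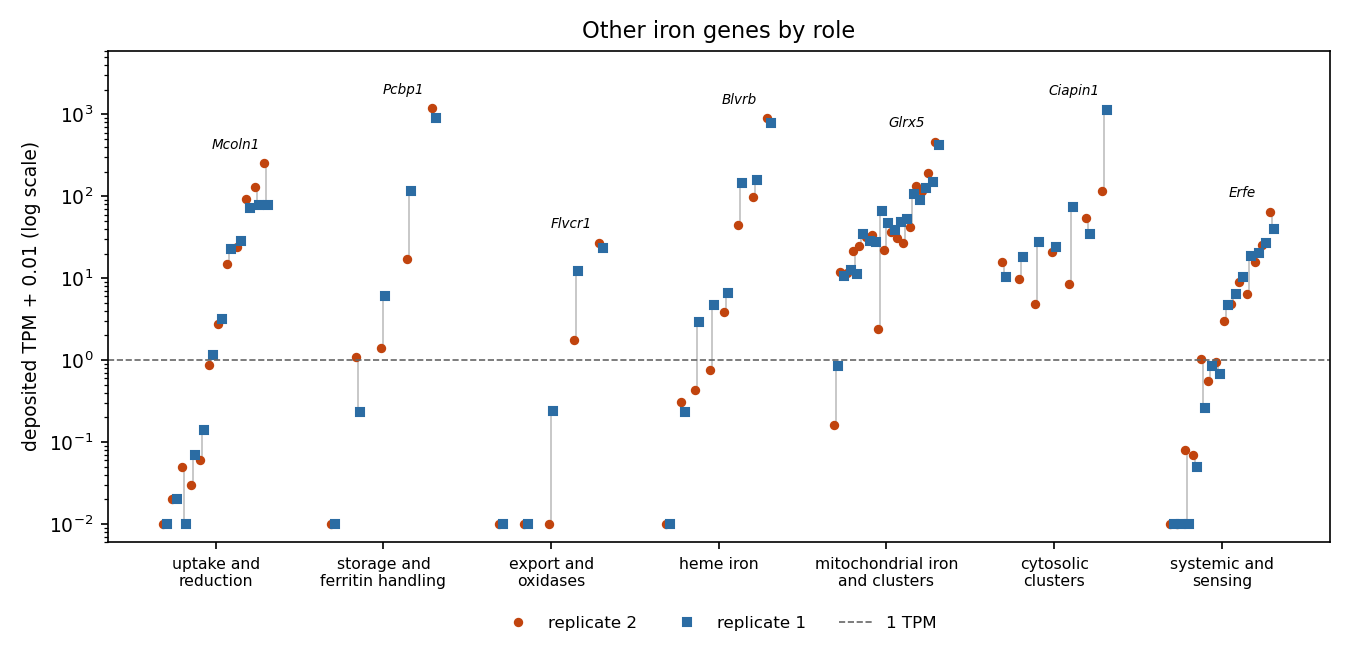
Deposited TPM plus 0.01, on a log scale, of the 68 other iron genes in 7 role groups, sorted by mean within a group, with a circle for replicate 2 and a square for replicate 1. The most abundant gene of each group is named above it, and 45 of the 68 genes lie at or above the dashed line at 1 TPM in both libraries.

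Other genes known to carry an element were also read. Alas2, the erythroid enzyme that opens heme synthesis, held the motif in its 5′ UTR by the same rule as the ferritins. Alas2 had 33.4 TPM in replicate 2 and 62.9 TPM in replicate 1, of which 89.9% and 97.7% came from the transcripts with the motif. Epas1 matched when 1 unpaired base was allowed, and had 2.19 TPM in replicate 2 and 5.66 TPM in replicate 1. The deposited Epas1 model has 5309 bases and Epas1-201 in M21 has 5516. Whether the shorter model holds the match was not examined. Cdc14a matched only with 4 of 5 bases paired, and its level of 7.94 TPM in replicate 2 and 1.89 TPM in replicate 1 came from 146 and 160 counts. Of the transcripts with the match, Cdc14a-201 had 0.39 TPM in replicate 2 and 1.08 TPM in replicate 1. Cdc14a-202, which also has it, had 0 and 0.78 TPM in the same order. Cdc14a-204, of 863 bases and without the match, had 7.48 TPM in replicate 2 and 0 in replicate 1. Cdc42bpa held no match, and had 38.1 TPM in replicate 2 and 34.2 TPM in replicate 1. Alas2, Epas1, Cdc14a and Cdc42bpa were not called apart between the libraries with TMM.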

How the data were processed

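For each library the authors deposited values per gene and per transcript, on mm10 and GENCODE M4 per the readme; the quantifying program is not given in the sources used here, and the column names are those of RSEM. Whether counting used strand is not given either. Deposited values were expected counts (estimated fragments), TPM and posterior mean TPM, FPKM, and the percent of each transcript in its gene. The authors' interval bounds for TPM carry its scale and are a signal with no stated level. For the members they lie around the posterior mean TPM and need not hold the TPM. For Fth1 in replicate 2 they ran from 11178 to 11290, with a posterior mean of 11234 and a TPM of 11633.

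Symbols, types, positions and transcripts came from GENCODE M21 by identifier without version: 42462 of 69691 rows matched, and 21474 were protein-coding. A count of 0 was taken to allow 3 counts. Expected counts were rounded; edgeR 4.0.16 in R 4.3.3 gave TMM scaling, DESeq2 1.42.0 gave other size factors. Ratios used a prior count of 0.5, an exact binomial (Clopper-Pearson) 95% interval, a minimum of 20 counts and a 2-fold limit. They were tested on simulated counts with counting error only. That simulation held no spread between libraries, so it could not test the calls against such spread. No test of the spread between animals was possible with 1 group of 2. Python 3.11.15, pandas 2.3.3, numpy 2.4.6, scipy 1.17.1 and matplotlib 3.10.9 did the rest.

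The members and lists were chosen with earlier results of these data known. Genes were named by rule. All members and other genes with an element were named. Of each role group or marker list, the 2 or 3 most abundant and those with 0 counts were named. Prom1 and Nup35 stand outside this rule, Prom1 as a marker of the labelled sort and Nup35 for its place in its list. Copies were named where they share reads with a member. Alas2, Cd163, Hamp, Lcn2, Ltf and Trf stand in more than 1 list. Ahsp was not analysed here, and 1 gene that the rule names is not reported here.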

Additional observations from a re-analysis of the deposited data

How the results depend on the processing

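With the minimum of 1 TPM, 9 members were detected, and the count stayed within 1.5-fold of that under every alternative run (minimums of 0.5 and 5 TPM, FPKM, posterior mean TPM and each library alone). The members called lower in replicate 2 numbered 1 with TMM, DESeq2 size factors, other count minimums or a prior count of 5. With TMM, 14.5% of all genes were called lower. The members numbered 5 with total counts (23.1% of all genes), 4 as ratios of TPM (24.2%) and 5 with a 1.5-fold limit (22.6%). Relative to genes of the same sixth by count, chosen after seeing the data, 4 were called lower, against 13.1% of all genes. Members called higher numbered 1, but 0 with total counts, with TPM and relative to the same sixth by count. Of the 11708 genes tested, 1035 were called higher with TMM, and 370, 459 and 1056 in these other settings, in the same order. The same leading transcript was found in 3 members by TPM and in 5 by counts, Slc11a2 among them by a near tie. The storage genes held 96.5% of member TPM on average and 89.5% of member counts, which are not divided by length. In replicate 2 alone the storage share was 98.0%, with 9 members and 47 other iron genes detected, and in replicate 1 alone 95.1%, with 10 and 48, beside 45 other iron genes in both. Of the single-gene ratios, 14 values crossed the limit under an alternative and 3, all of Ftl1, no longer did, and none of the called ratios changed sign. Mean levels moved beyond their SD in 6 cases, of Fth1, Slc11a2 and Slc40a1. The motif was found in 4 members, and in 5 under either looser stem rule. No paired analysis was possible because the series holds 1 group. Depth limits the values of Ireb2 in replicate 2, at 96 counts, and of the members' transcripts under 500 bases named, at fewer.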
